A study of Mus musculus with 6 samples.

Results

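Whole uterine sections from mice given the synthetic estrogen diethylstilbestrol (DES) as newborns were compared with sections from mice given corn oil (CO), 2 sections against 2, gene by gene across the genome. All unique molecular identifiers (UMIs, each of which marks 1 captured RNA molecule) of a section were summed over its spots, so that the section, taken from 1 mouse, was the replicate. These 4 sections belong to a series of 6 samples, and the 30828 genes of the files gave 14098 genes with enough UMIs to test. Female CD-1 mice had received corn oil or DES at 1 mg/kg/day on days 1 to 5 after birth, and uteri were taken at 12 months of age. Exposed mice remain in persistent estrus, and the corn oil mice were taken in estrus to match. Frozen blocks were cored to fit the capture area, all 4 sections were placed on 1 slide, and the DES blocks had been chosen by a pathologist for the presence of adenocarcinoma. The comparison therefore sets tumour-bearing regions of 2 exposed uteri against regions of 2 unexposed uteri, and an effect of exposure, of the tumour and of the place of the core cannot be told apart.

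The uterine wall consists of a luminal and glandular epithelium on a bed of stroma, surrounded by the smooth muscle of the myometrium. Estrogen acts through its receptor to drive growth and secretion of the adult epithelium, and the epithelium takes its fate during early postnatal life under the influence of Wnt, Hox and Müllerian duct transcription factors. DES given in that window is a classical model in which the uterus later carries stratified, basal-type epithelium and adenocarcinoma.

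The CO sections, CO A and CO B, held 1433 and 1834 spots with 12506177 and 11032957 UMIs. The DES sections, DES A and DES B, held 1575 and 1357 spots with 9117099 and 9880021 UMIs. Levels are given as CPM, a gene's UMIs scaled to a section total of 1000000 UMIs. A spot is a small region that can cover several cells, and in summed sections fewer cells of a type and less RNA per cell cannot be told apart. The labelled tissue was checked against defining markers. The 6 smooth muscle markers (Myh11, Acta2, Des, Cnn1, Actg2 and Tagln) summed to 14758 and 16169 CPM in CO and to 3562 and 4036 CPM in DES. The 3 basal markers summed to 3.36 and 160 CPM in CO and to 9526 and 5644 CPM in DES, and the 7 epithelial markers to 8931 and 4704 CPM in CO and 8731 and 6128 CPM in DES. All of the markers were detected except Myh4, a myosin of fast skeletal muscle, which was at 0 in every section.

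The sections differed in genes of epithelium, smooth muscle, stroma and immune cells. Among the largest rises that passed the test described next, Olfm4 reached the highest level. The basal keratin genes Krt5 and Krt14 reached higher levels in both DES sections but did not pass. Of the 14098 genes tested, 367 were higher and 363 lower in DES, that is 5.18% in either direction, 2.6% higher and 2.57% lower (quasi-likelihood test of edgeR, adjusted p under 0.05 by Benjamini-Hochberg). The median log2 fold change of all tested genes was -0.01. The rises were larger than the falls, with a median log2 fold change of 2.59 among the genes called higher and -1.87 among those called lower. For comparison with the lists, 11.5% of all tested genes were higher and 12.7% lower at an unadjusted p under 0.05 in edgeR, and DESeq2 called 5.83% higher and 6.87% lower. Both DES sections lay above both CO sections in CPM in 43.8% of all tested genes and below them in 17.9% (61.6% in all). Separation alone was therefore common here. CPM is scaled by library totals alone, unlike the fits. With that scaling the median log2 fold change of all tested genes was 0.20, against -0.01 in the fits. The cause of the uneven split was not tested. A further 96 genes differed by more than 4 on the log2 scale without passing the test, and 70 of these were higher in DES. According to the study's text, CO B had a tissue fold and DES B was of limited use for clustering, and both are used here as full replicates. The CO sections were less alike than the DES sections. Of 7253 genes with a mean of at least 20 CPM, 566 (7.80%) differed more than 2-fold between CO A and CO B, against 114 (1.57%) between DES A and DES B. The counts of calls moved widely when 1 section was left out, with 83 calls (72 higher and 11 lower) without DES A and 55 (50 higher and 5 lower) without DES B, against 2796 without CO A and 2285 without CO B. All 730 called genes kept their sign in each of these fits, which is likely for genes chosen by their call over all sections. Scaled by library totals alone, the split of calls moved from 367 higher and 363 lower to 536 higher and 270 lower, since that scaling lifts the median of all genes to 0.20.

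**Figure D1:**
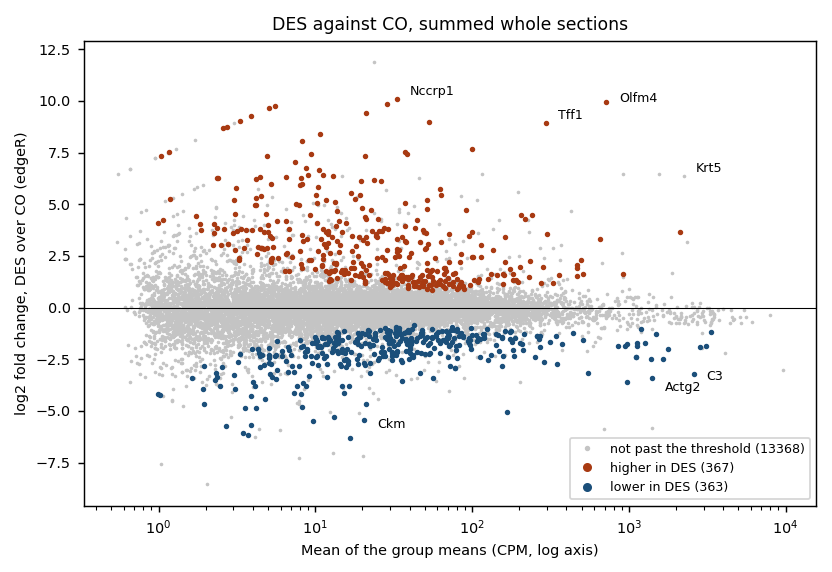
Log2 fold change of DES over CO (vertical axis) against the mean level of each of the 14098 tested genes (horizontal axis, CPM, log scale), with 1 point per gene and the 367 higher and 363 lower genes in colour. The largest rises were genes with almost no UMI in CO, and the largest falls at high levels included C3 and Actg2, while Krt5 lies far above 0 without passing the test.

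Olfm4 (chromosome 14, 79984081 to 80023139, GRCm38), which encodes a secreted glycoprotein of intestinal stem cells and several carcinomas, stood at 0.400 and 2.18 CPM in CO and at 1534 and 1340 CPM in DES, a log2 fold change of 9.94 ± 0.78 (SE, n = 2 sections per group; adjusted p = 0.0191, edgeR). The DES sections were close to each other and both lay far above both CO sections. At an equal depth of 2000 UMIs per spot, 66.4% and 70.7% of DES spots held an Olfm4 UMI, against 0% and 0.0621% of CO spots. This leaves out 124 and 224 CO spots and 409 and 287 DES spots that were too shallow, and without thinning the shares were 66.5% and 74.1% in DES and 0.349% and 0.872% in CO. The call was lost without DES B.

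Other large rises included Tff1, Spdef and Upk1a. Tff1, a trefoil peptide secreted with mucus, stood at 0.160 and 1.99 CPM in CO and 329 and 852 CPM in DES (log2 fold change 8.94 ± 1.12, adjusted p = 0.0285, edgeR). Spdef, an ETS transcription factor of secretory goblet cells, stood at 0.400 and 0.272 CPM in CO and 83.5 and 64.4 CPM in DES (7.51 ± 0.30, adjusted p = 0.0126, edgeR). Upk1a, a uroplakin of the urothelial surface membrane, stood at 0.800 and 0.906 CPM in CO and 193 and 207 CPM in DES (7.65 ± 0.23, adjusted p = 0.0079, edgeR). Of the 3 genes Tff1 varied most, with DES B above DES A. The tenth of spots with the most Tff1 UMIs held 83.9% and 86.4% of them in the DES sections, against 75.4% and 77.2% for Spdef, 58.1% and 49.4% for Upk1a and 54.8% and 48.2% for Olfm4.

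The 15 largest rises were taken among called genes with separated groups and at least 20 CPM in both DES sections. Called genes outside these conditions included Six3 and Krt34, with log2 fold changes of 9.74 and 9.65. The rest of the 15 were Nccrp1, Cyp4a12b, RP23-433F5.1, Mmp12, Trex2, Amtn, Cxcl13, Vpreb3, Ces2f, Dapl1 and Klhdc8a. Nccrp1, which binds glycoproteins in stratified epithelium, had 1 UMI in the CO sections together and 1265 in the DES sections, a CPM ratio of 1567 (exact 95% counting interval 281 to 61959). Cyp4a12b, a cytochrome P450, had 1 and 1104 UMIs (ratio 1368, 245 to 54080), and its reads may be shared with near-identical family members. Mmp12, the macrophage elastase, stood at 0.160 and 0.181 CPM in CO and 179 and 31.3 CPM in DES, so that DES A held most of it. Cxcl13, a chemokine that attracts B cells, stood at 0.560 and 0.544 CPM in CO and 43.5 and 49.8 CPM in DES. With 1 section left out not all of these 15 genes stayed past the test. All 15 kept their sign, which the separation required for their choice made almost certain.

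**Figure D2:**
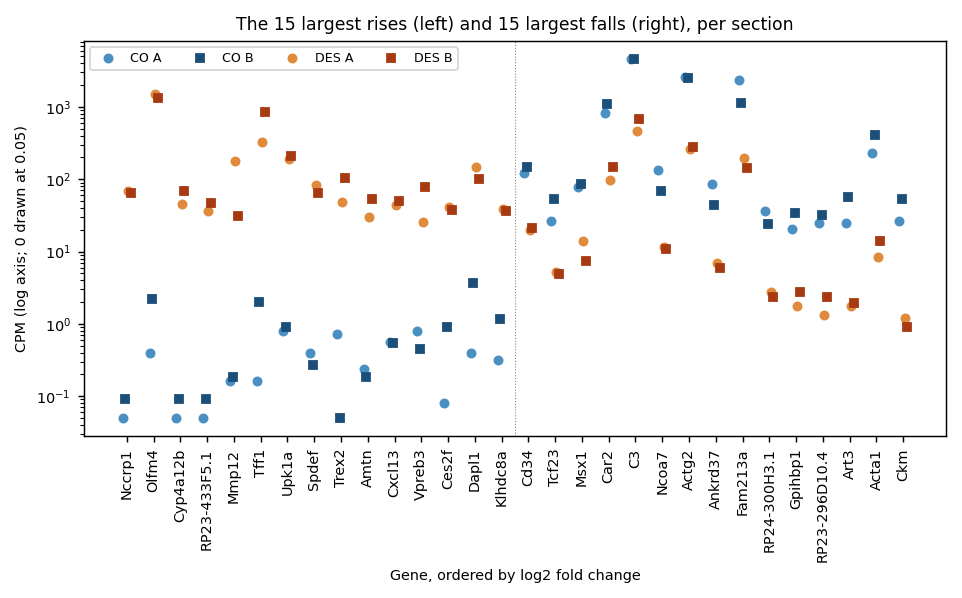
Level of each of the 15 genes with the largest rises (left of the dotted line) and the 15 with the largest falls (right) in CPM on a log axis, with 1 point per section and values of 0 drawn at 0.05. Separation of the groups was a condition for choosing these genes, and the largest spread between DES sections is that of Mmp12, at 179 and 31.3 CPM.

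Among the 15 largest falls were Ckm, Acta1 and Actg2. Ckm, muscle creatine kinase, stood at 26.3 and 53.8 CPM in CO and 1.21 and 0.911 CPM in DES (log2 fold change -5.43 ± 0.48, adjusted p = 0.0206, edgeR). Acta1, a muscle actin, stood at 233 and 412 CPM in CO and 8.45 and 14.1 CPM in DES (-5.03 ± 0.45, adjusted p = 0.0206, edgeR). Actg2, the smooth muscle gamma actin, stood at 2607 and 2492 CPM in CO and 266 and 280 CPM in DES (-3.43 ± 0.19, adjusted p = 0.0126, edgeR). The sections of each group nearly coincided for Actg2, a 9.34-fold difference between the group means.

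C3, complement component 3, which the uterine epithelium makes under estrogen, stood at 4657 and 4589 CPM in CO and 461 and 685 CPM in DES (-3.21 ± 0.28, adjusted p = 0.0206, edgeR). Car2, a carbonic anhydrase, stood at 834 and 1110 CPM in CO and 97.0 and 149 CPM in DES (-3.18 ± 0.32, adjusted p = 0.0209, edgeR). Fam213a, a peroxiredoxin-like gene, stood at 2377 and 1151 CPM in CO and 197 and 142 CPM in DES (-3.60 ± 0.45, adjusted p = 0.0282, edgeR). Fam213a varied most between the CO sections. C3 remained widespread, with a UMI in 48.5% and 58.1% of DES spots against 84.1% and 89.7% of CO spots at equal depth. The rest of the 15 largest falls were Art3, Gpihbp1, Ankrd37, Ncoa7, Msx1, Tcf23, Cd34, RP23-296D10.4 and RP24-300H3.1. Of the 15, only Actg2, Acta1 and RP23-296D10.4 stayed past the test whichever section was left out.

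Smooth muscle genes fell together. Of 22 listed genes, 18 were lower and none higher, with a median log2 fold change of -1.88 against -0.01 for all genes tested, of which 2.57% were called lower. At an unadjusted p under 0.05 in edgeR 21 of the 22 were lower and none higher, and DESeq2 called 19 lower and none higher. The 22 genes made up 2.90% and 3.21% of UMIs in CO and 0.816% and 0.902% in DES. Cnn1, calponin, which regulates the actin filaments of smooth muscle, stood at 2356 and 2215 CPM in CO and 436 and 495 CPM in DES (-2.50 ± 0.20, adjusted p = 0.0191, edgeR). Tpm2, a tropomyosin, stood at 2764 and 2747 CPM in CO and 517 and 616 CPM in DES (-2.49 ± 0.20, adjusted p = 0.0198, edgeR). With DES A or DES B left out, 1 of the 22 genes remained past the test. Of 18 genes of uterine contraction, 5 were lower and none higher, with 9 lower and 1 higher at an unadjusted p under 0.05 in edgeR and 7 lower and 1 higher by DESeq2. They included Ednrb, an endothelin receptor, the ion channel genes Kcnmb1 and Cacna1c, and the calcium pump gene Atp2b4. In spots with under 1% muscle-marker UMIs, an alternative described next, 1 of 16 that could be tested was lower, Kcnmb1 turned to 1.89 and Atp2b4 to 0.52, and Cacna1c came to -0.16.

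Because muscle-marker UMIs differed between the groups, an alternative chosen after seeing the data summed the spots in which the 6 muscle markers made up under 1% of UMIs. Such spots were 57.4% and 52.5% of the CO spots and 80.1% and 79.8% of the DES spots. They held 8628014 and 6905793 UMIs in CO and 8277172 and 8721098 in DES, most of the UMIs from which the calls were made. Kept signs were therefore likely and are no separate support for the calls. In these sums all 367 genes called higher kept their sign, and 197 of them passed the test again. Of the 340 called lower that could be tested, 286 kept their sign and 161 passed again, whereas 54 changed sign. Among the 54 were Cnn1 (log2 fold change 1.02) and Tpm2 (0.91), and 3 genes, Acta2, Myl9 and Jph2, passed the test in the other direction. These genes, named after their values were seen, belong to the muscle program by which the spots were chosen. Actg2 came to -0.31 and Acta1 to -1.27 in these spots, neither past the test, while C3 came to -3.74, Car2 to -3.63 and Olfm4 to 9.42, all past it. Of the 15 largest falls 10 passed in these spots. Art3 came to -0.50 and Tcf23 to -0.93 without passing, and Ckm could not be tested there.

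**Figure D3:**
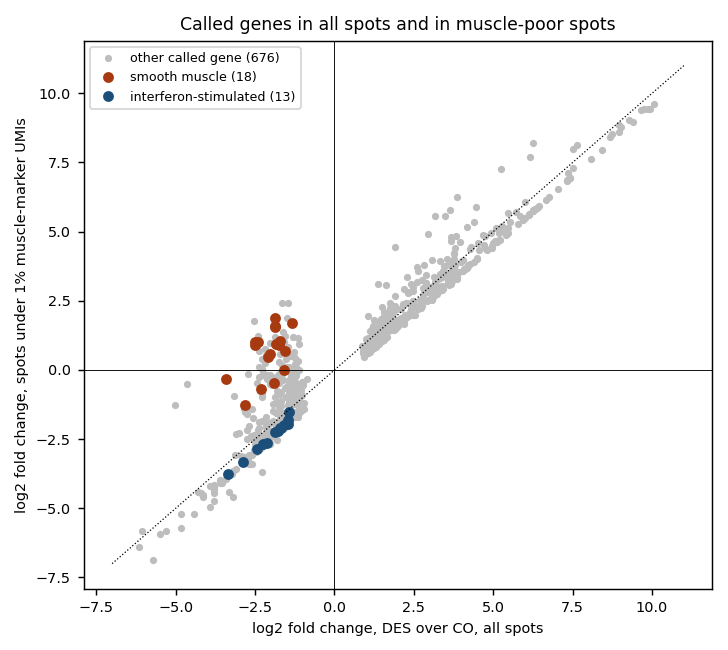
Log2 fold change of DES over CO for the 707 called genes that could be tested in both sums, over all spots (horizontal axis) and over spots with under 1% of UMIs from the 6 muscle markers (vertical axis), with the dotted line marking equality. The 367 genes called higher lie above 0 on both axes, many of them off the line, and the 13 interferon-stimulated genes called lower lie below 0 on both, while most of the 18 smooth muscle genes lie near or above 0 on the vertical axis.

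Genes of the basal and stratified epithelium, the layered type found in vagina and skin, lay far higher in DES, but most did not pass the test. Of 27 listed genes, 6 were higher and none lower (Krt6b, Krt1, Krt17, Dsg3, Perp and Nccrp1), with a median log2 fold change of 3.64. In edgeR at an unadjusted p under 0.05 22 were higher and none lower, and DESeq2 called 16 higher and none lower. In 24 of the 27 both DES sections lay above both CO sections, against 43.8% of all tested genes. The basal keratin Krt14 stood at 1.68 and 59.7 CPM in CO and 4175 and 2019 CPM in DES (log2 fold change 6.46 ± 1.70, adjusted p = 0.105, edgeR). Its partner Krt5 stood at 0.800 and 93.4 CPM in CO and 5276 and 3562 CPM in DES (6.36 ± 1.99, adjusted p = 0.143, edgeR). Trp63, the transcription factor that specifies basal cells, stood at 0.880 and 6.53 CPM in CO and 75.7 and 63.6 CPM in DES (4.05 ± 0.81, adjusted p = 0.0622, edgeR). In each of the 3 genes CO B lay well above CO A, and in CO B a spot cluster of 17 spots held 68.3% of the Krt14 UMIs. Without CO B 19 of the 27 genes were past the test and without CO A 17, against 2 without DES A and 3 without DES B.

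Of the basal genes that passed, Krt17, a keratin of wounded and hyperproliferative epithelium, stood at 7.76 and 8.61 CPM in CO and 86.3 and 83.5 CPM in DES (3.17 ± 0.16, adjusted p = 0.0126, edgeR). Dsg3, a desmosomal cadherin, had no UMI in the CO sections and 6.58 and 4.35 CPM in DES, at least 42.5-fold higher against a floor of 3 counts over the CO group. Its 2 DES values were close, and no CO spot held it. Of 8 small proline-rich genes 1 was higher, Sprr1a, and none lower, with a median of -0.52 that turned to 0.98 without CO A, and of 11 desmosome genes 2 were higher, Dsg3 and Evpl, and none lower. At an unadjusted p under 0.05 in edgeR these lists had 2 and 7 higher and 1 lower each, and DESeq2 called 1 and 7 higher and 1 lower each. Sprr1a, a precursor of the cornified envelope, stood at 121 and 88.7 CPM in CO and 1409 and 1000 CPM in DES (3.31 ± 0.29, adjusted p = 0.0206, edgeR). Evpl, envoplakin, which links the envelope to desmosomes, stood at 23.7 and 19.1 CPM in CO and 154 and 144 CPM in DES (2.59 ± 0.20, adjusted p = 0.0185, edgeR). Serpinb11, a serpin, stood at 23.3 and 12.4 CPM in CO and 475 and 455 CPM in DES (4.49 ± 0.39, adjusted p = 0.0206, edgeR). Sprr2f, a small proline-rich gene like Sprr1a, stood at 9636 and 3551 CPM in CO and 1119 and 2157 CPM in DES (-2.22 ± 0.61, adjusted p = 0.114, edgeR). Sprr2f did not pass, and CO A lay well above CO B.

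The simple epithelium itself was present in both groups. Of 18 genes of simple epithelium 1 was higher, a share near the 5.18% of all genes, the tight junction gene Cldn4, and none lower, with a median of 0.31. That median was 0.68 without CO A and 0.06 without CO B. At an unadjusted p under 0.05 in edgeR 6 were higher and 1 lower, while DESeq2 called 3 higher and 1 lower. Cldn4 stood at 18.6 and 34.9 CPM in CO and 163 and 116 CPM in DES (2.18 ± 0.35, adjusted p = 0.0405, edgeR). Of 17 luminal genes 2 were higher and 2 lower, with a median of -0.88, while at an unadjusted p under 0.05 in edgeR and by DESeq2 5 were higher and 6 lower. That median was 0.41 without CO A. Lrmp stood at 6.56 and 5.17 CPM in CO and 186 and 170 CPM in DES (4.71 ± 0.22, adjusted p = 0.0126, edgeR). Trpv6, an epithelial calcium channel, stood at 317 and 302 CPM in CO and 92.5 and 119 CPM in DES (-1.75 ± 0.22, adjusted p = 0.029, edgeR). Both genes separated the groups without overlap. Of 14 gland genes, 3 were higher and 1 lower, with a median of -1.12, while at an unadjusted p under 0.05 in edgeR 3 were higher and 6 lower and DESeq2 called 3 higher and 5 lower. Foxa2, the transcription factor required for uterine gland development, stood at 4.48 and 3.44 CPM in CO and 22.5 and 37.8 CPM in DES (2.72 ± 0.37, adjusted p = 0.031, edgeR), and Klk1, a secreted kallikrein, at 4.64 and 2.54 CPM in CO and 0.219 and 0.304 CPM in DES (-3.92 ± 0.64, adjusted p = 0.0417, edgeR). Prap1, a secreted protein of the uterine epithelium, stood at 2925 and 30907 CPM in CO and 1767 and 2949 CPM in DES and did not pass (adjusted p = 0.186, edgeR). The CO sections lay far apart in it.

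**Figure D4:**
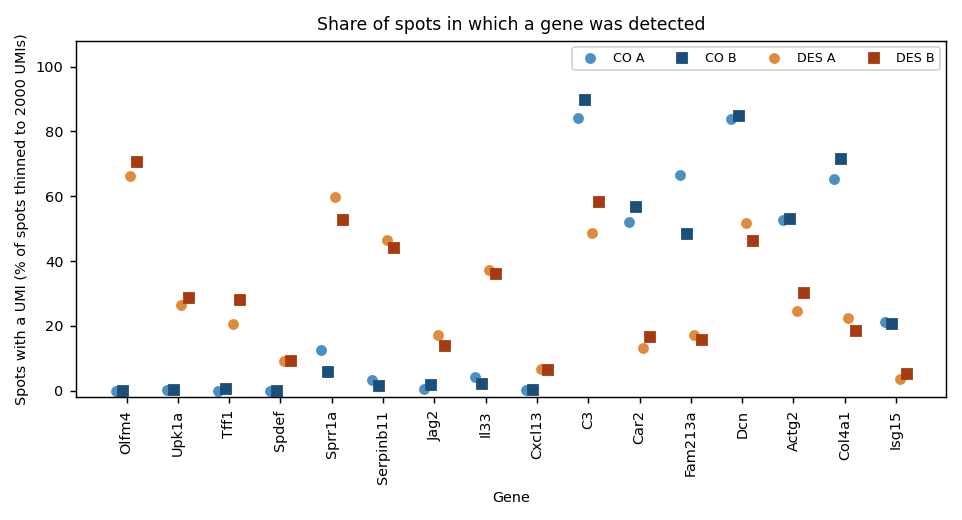
Share of spots with at least 1 UMI of each gene (vertical axis, percent of spots thinned to 2000 UMIs), with 1 point per section. Olfm4 was found in 66.4% and 70.7% of DES spots and in almost no CO spot, Spdef and Cxcl13 in few DES spots, and C3, Dcn and Col4a1 in fewer DES than CO spots.

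Several transcription factors of the Müllerian duct and of epithelia rose. Of 29 listed genes, 8 were higher (Eya1, Foxa1, Foxa2, Runx1, Msx2, Grhl1, Grhl3 and Pitx1) and 1, Msx1, lower, with a median log2 fold change of 0.44. That was 31.0% called, against 5.18% of all tested genes. At an unadjusted p under 0.05 in edgeR 11 were higher and 5 lower, and DESeq2 called 10 higher and 3 lower. In the spots with under 1% muscle-marker UMIs 5 of 28 were higher and 2 lower. There Foxa1 came to 6.13, Msx2 to 1.05 and Pitx1 to 5.35, and these 3 genes no longer passed. Grhl1 and Grhl3 are grainyhead factors that direct the epithelial barrier. Grhl1 stood at 2.40 and 1.81 CPM in CO and 50.2 and 46.5 CPM in DES (4.30 ± 0.24, adjusted p = 0.0127, edgeR), and Grhl3 at 1.44 and 0.906 CPM in CO and 33.1 and 44.2 CPM in DES (4.81 ± 0.36, adjusted p = 0.0185, edgeR). The homeobox genes Msx1 and Msx2 moved in opposite directions. Msx1 stood at 77.7 and 87.1 CPM in CO and 13.8 and 7.29 CPM in DES (-3.18 ± 0.32, adjusted p = 0.0209, edgeR), and Msx2 at 21.2 and 17.1 CPM in CO and 59.0 and 65.3 CPM in DES (1.49 ± 0.20, adjusted p = 0.0301, edgeR). Without DES A, 4 of the 29 genes were higher, and without DES B 3.

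Hox genes set position along the reproductive tract. Of 10 posterior Hox genes, 4 were lower, all in the Hoxd cluster on chromosome 2 (Hoxd8, Hoxd9, Hoxd10 and Hoxd11), and 1, Hoxb9, was higher. That was 50% called, against 5.18% of all tested genes. At an unadjusted p under 0.05 in edgeR 2 were higher and 6 lower, and DESeq2 called 1 higher and 5 lower. Hoxd10 stood at 34.9 and 34.9 CPM in CO and 4.17 and 8.30 CPM in DES (-2.68 ± 0.38, adjusted p = 0.0322, edgeR). Hoxd9 stood at 40.6 and 57.6 CPM in CO and 12.0 and 12.3 CPM in DES (-2.22 ± 0.23, adjusted p = 0.0209, edgeR). Hoxd9, Hoxd10 and Hoxd11 lie next to each other, and neither Hoxa10 (57.4 and 74.2 CPM in CO, 41.6 and 35.2 CPM in DES) nor Hoxa11 (26.5 and 29.3 CPM in CO, 23 and 15.4 CPM in DES) passed. These calls were lost without DES A or DES B. Other neighbours that rose together were 4 carboxylesterase genes on chromosome 8 from 104847068 to 104969537, Ces2c, Ces2e, Ces2f and Ces2g, with log2 fold changes of 3.1, 3.71, 6.12 and 3.16. Near-identical copies such as these may share reads, and the cluster was picked out after its values were seen.

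In the Notch pathway, which relays signals between neighbouring cells, 4 of 16 genes were higher and 1 lower, with a median log2 fold change of 1.00. That was 31.25% called, against 5.18% of all tested genes. At an unadjusted p under 0.05 in edgeR 10 were higher and 1 lower, and DESeq2 called 8 higher and 1 lower. The ligand Jag2 stood at 4.08 and 7.61 CPM in CO and 103 and 80.9 CPM in DES (3.78 ± 0.34, adjusted p = 0.0206, edgeR). The receptor Notch3 (14.6 and 22.5 CPM in CO, 71.2 and 56.9 CPM in DES) and the targets Hes1 and Nrarp were also higher. Hes1 stood at 67.7 and 60.1 CPM in CO and 220 and 226 CPM in DES (1.6 ± 0.18, adjusted p = 0.0234, edgeR), while the endothelial ligand Dll4 stood at 19.6 and 21.1 CPM in CO and 5.92 and 4.76 CPM in DES (-2.14 ± 0.22, adjusted p = 0.0209, edgeR). Without DES A or DES B, 2 of the 16 were past the test.

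Among 13 Wnt ligands of the list 3 were higher and none lower. They were Wnt4, Wnt7b and Wnt10a. At an unadjusted p under 0.05 in edgeR 5 of the 13 were higher and 2 lower, and DESeq2 called 5 higher and 1 lower. Wnt3a, which the list left out, was also called higher (log2 fold change 7.52) and was named after its value was seen. In the spots with under 1% muscle-marker UMIs it came to 7.29 and did not pass. Wnt4, a ligand of uterine stroma and epithelium, stood at 28.9 and 19.7 CPM in CO and 109 and 105 CPM in DES (1.93 ± 0.25, adjusted p = 0.029, edgeR). Of 16 Wnt receptor genes Fzd10 and Lgr4 were higher and Fzd5 lower, and of 22 Wnt target genes Olfm4 and Ccnd2 were higher and none lower. The shares called were 23.1% of the ligands, 18.75% of the receptors and 9.09% of the targets, against 5.18% of all tested genes. In the spots with under 1% muscle-marker UMIs Wnt7b came to 1.26, Fzd5 to -1.58 and Ccnd2 to 1.62, and these 3 genes no longer passed. In edgeR at an unadjusted p under 0.05 7 targets were higher and 1 lower, and DESeq2 called 7 higher and none lower. Axin2, a general readout of the pathway, stood at 22.1 and 17.7 CPM in CO and 14.5 and 13.4 CPM in DES and did not pass (-0.73 ± 0.22, adjusted p = 0.132, edgeR). En2, a homeobox target, stood at 0.0800 and 0.181 CPM in CO and 3.40 and 13.6 CPM in DES (adjusted p = 0.0536, edgeR). In the PI3K and AKT pathway, 1 of 28 genes was higher and none lower (3.57%, against 5.18% of all tested genes in either direction). At an unadjusted p under 0.05 in edgeR 3 were higher and none lower, and DESeq2 called 2 higher and none lower. The gene called was the kinase Sgk1, at 62.9 and 74.9 CPM in CO and 239 and 258 CPM in DES (1.65 ± 0.18, adjusted p = 0.0234, edgeR). In the spots with under 1% muscle-marker UMIs Sgk1 came to 2.03 and did not pass. The list's median was -0.01.

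A subset of the interferon-stimulated genes fell in DES. These genes are switched on by type I interferon and limit viral replication. Of 42 tested, 13 were lower and none higher, with a median log2 fold change of -1.24, and in 31 both DES sections lay below both CO sections, against 17.9% of all tested genes. At an unadjusted p under 0.05 in edgeR 28 were lower and none higher, and DESeq2 called 22 lower and none higher. Isg15, a ubiquitin-like protein, stood at 143 and 122 CPM in CO and 23.1 and 33.2 CPM in DES (-2.43 ± 0.27, adjusted p = 0.0228, edgeR). Rsad2, viperin, stood at 8.0 and 11 CPM in CO and 0.877 and 1.21 CPM in DES (-3.36 ± 0.39, adjusted p = 0.025, edgeR). Ifit3, an RNA-sensing effector, stood at 24.9 and 29.5 CPM in CO and 2.63 and 5.77 CPM in DES (-2.88 ± 0.42, adjusted p = 0.0345, edgeR). All 4 values of each gene separated by group. In the spots with under 1% muscle-marker UMIs the list gave 13 lower of 42 and a median of -1.53. Without DES A or DES B none of the 42 passed, while without CO A 19 were lower and 1 higher. MHC class I genes, 20 in number, had none past the test and a median of 0.50, which ran from 1.00 without DES A to -0.19 without DES B, with 1 higher at an unadjusted p under 0.05 in edgeR and none called by DESeq2.

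The interferon-stimulated response element (ISRE, searched as GAAANNGAAA on either strand, overlapping matches included) is the known binding site of the factor complex that interferon activates. Of the 31 listed interferon-stimulated genes with a promoter in the RefSeq set (GRCm38.p6, from 250 bases before to 50 after the start), 22 held it (71.0%), against 1079 of 27025 genes in the set (3.99%). Among genes called lower 15 of 261 (5.75%) held it, and among those called higher 10 of 239 (4.18%). The promoters of the 3 members with the largest falls among those called lower, listed with 1 promoter and holding the ISRE, are shown to let the element be read in place, with it in capitals, Rsad2 at chr12:26456403-26456702 on the minus strand, Ifit3 at chr19:34583279-34583578 on the plus strand and Isg15 at chr4:156200769-156201068 on the minus strand. In Isg15, 3 overlapping matches form 1 stretch.

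Rsad2: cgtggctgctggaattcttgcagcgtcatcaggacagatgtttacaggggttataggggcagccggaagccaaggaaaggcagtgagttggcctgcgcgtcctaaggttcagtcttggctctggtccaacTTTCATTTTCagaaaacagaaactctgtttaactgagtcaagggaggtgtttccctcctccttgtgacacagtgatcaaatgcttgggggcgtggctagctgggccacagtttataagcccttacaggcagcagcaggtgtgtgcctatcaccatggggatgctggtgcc
Ifit3: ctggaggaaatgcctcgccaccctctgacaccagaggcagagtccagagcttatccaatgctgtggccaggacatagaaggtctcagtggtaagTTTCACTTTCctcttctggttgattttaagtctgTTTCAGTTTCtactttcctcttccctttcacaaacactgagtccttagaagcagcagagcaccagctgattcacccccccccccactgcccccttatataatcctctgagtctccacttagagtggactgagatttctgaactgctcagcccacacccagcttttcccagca
Isg15: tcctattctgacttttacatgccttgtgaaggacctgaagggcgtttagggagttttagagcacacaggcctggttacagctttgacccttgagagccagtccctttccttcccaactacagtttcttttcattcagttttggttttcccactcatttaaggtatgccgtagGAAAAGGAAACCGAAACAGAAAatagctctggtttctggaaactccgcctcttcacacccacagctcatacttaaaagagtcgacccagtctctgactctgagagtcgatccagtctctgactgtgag

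The CArG box, the site of serum response factor in muscle promoters, stood in 18 of 261 genes called lower (6.90%), 6 of 239 called higher (2.51%) and 170 of 10167 tested (1.67%). Among the smooth muscle genes called lower with a promoter in the set, it stood in 1 of 14. That gene was Myl9, a myosin light chain, at 4477 and 4971 CPM in CO and 1404 and 1574 CPM in DES, whose promoter (chr2:156775214-156775513, plus strand, GRCm38.p6) is shown with the box in capitals. A match describes the letters of the window and no more.

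Myl9: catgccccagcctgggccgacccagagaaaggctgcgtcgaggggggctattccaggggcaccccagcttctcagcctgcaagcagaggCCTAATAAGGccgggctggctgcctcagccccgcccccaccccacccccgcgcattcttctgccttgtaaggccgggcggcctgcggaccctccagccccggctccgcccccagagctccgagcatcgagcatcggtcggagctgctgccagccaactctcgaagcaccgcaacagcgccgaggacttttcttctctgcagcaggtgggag

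Stromal genes were lower in part. Of 19 listed, 3 were lower (Dcn, Lum and Hand2) and none higher, with a median of -1.25. That was 15.8% called, against 5.18% of all tested genes. In edgeR at an unadjusted p under 0.05 13 were lower and none higher, and DESeq2 called 12 lower and none higher. Dcn, decorin, a collagen-binding proteoglycan, stood at 1134 and 1462 CPM in CO and 489 and 350 CPM in DES (-1.84 ± 0.24, adjusted p = 0.0301, edgeR). Hand2, a progesterone-responsive transcription factor of the stroma, stood at 24.2 and 28.7 CPM in CO and 6.14 and 4.35 CPM in DES (-2.54 ± 0.25, adjusted p = 0.0209, edgeR). The collagens that fell included chains of the basement membrane and of fibrils. Col4a1 stood at 512 and 682 CPM in CO and 122 and 84.2 CPM in DES (-2.74 ± 0.27, adjusted p = 0.0209, edgeR), and Col4a2 fell with it. Of 29 collagens, 5 were lower (Col3a1, Col4a1, Col4a2, Col5a1 and Col15a1) and none higher, while at an unadjusted p under 0.05 in edgeR 2 were higher and 11 lower and DESeq2 called 1 higher and 9 lower. Of 15 genes of laminins and basement membrane, 3 were lower (Lama2, Lamb1 and Lamc1) and 3 higher, among them Lama1 and Lamb3. The shares called were 17.2% of the collagens and 40% of the laminin list, against the same 5.18%. Lama1 stood at 1.68 and 1.63 CPM in CO and 26.0 and 19.0 CPM in DES (3.54 ± 0.28, adjusted p = 0.0191, edgeR). Without DES A or DES B none of the stromal, collagen or laminin list passed. In the spots with under 1% muscle-marker UMIs 2 stromal and 3 collagen genes were lower, and the laminin list had 1 higher and 2 lower. There Lum came to -0.33, Col15a1 to -0.50, Lamc1 to -0.60 and Lamb3 to 0.51, and these genes, Col3a1 and Col5a1 no longer passed.

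Some genes of vessel-associated cells fell as well. Of 9 pericyte genes, 5 were lower (Rgs5, Cspg4, Kcnj8, Higd1b and Mcam) and 1 higher, Notch3. That was 66.7% called, against 5.18% of all tested genes. At an unadjusted p under 0.05 in edgeR and by DESeq2 1 was higher and 7 lower. In the spots with under 1% muscle-marker UMIs 3 of the 9 were lower, none was higher, Mcam turned to 0.19 and Cspg4 came to -0.08. Without DES A or DES B none of the 9 passed. Rgs5, a G-protein regulator of pericytes, stood at 96.3 and 120 CPM in CO and 33.1 and 38.5 CPM in DES (-1.79 ± 0.20, adjusted p = 0.023, edgeR). None of 18 endothelial genes passed, with a median of -0.89, although 11 were lower and none higher at an unadjusted p under 0.05 in edgeR and DESeq2 called 3 lower. Mast cell proteases also fell. Of 6 mast cell genes, 4 were lower (Mcpt4, Cma1, Tpsb2 and Tpsab1) and Kit was higher. That was 83.3% called, against 5.18% of all tested genes. At an unadjusted p under 0.05 in edgeR and by DESeq2 1 was higher and 5 lower. Cma1, a chymase, stood at 9.28 and 21.4 CPM in CO and 1.10 and 0.810 CPM in DES (-4.19 ± 0.55, adjusted p = 0.0297, edgeR). Tpsab1, a tryptase, had 176 UMIs in CO and 3 in DES, a CPM ratio of 47.3 (exact 95% counting interval 15.9 to 232). In the spots with under 1% muscle-marker UMIs the 4 protease genes were too scarce to test.

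Antibody genes lay higher in DES. Of 16 genes of plasma cells, 2 were higher, Igkc and Ighm, and none lower, with a median log2 fold change of 3.2. That was 12.5% called, against 5.18% of all tested genes. At an unadjusted p under 0.05 in edgeR 12 were higher and none lower, while DESeq2 called 10 higher and none lower. The median was 2.78 without DES B. Igkc, the kappa light chain, stood at 186 and 362 CPM in CO and 2726 and 5220 CPM in DES (3.67 ± 0.51, adjusted p = 0.032, edgeR). In the spots with under 1% muscle-marker UMIs Igkc came to 3.09 and did not pass, while Ighm came to 2.56 and passed. Igha, the heavy chain of mucosal antibody, stood at 129 and 705 CPM in CO and 3192 and 5414 CPM in DES and did not pass (3.19 ± 0.86, adjusted p = 0.109, edgeR). The 10 class II presentation genes tested all lay higher in both DES sections than in either CO section, with a median of 2.25 and none past the test, where 43.8% of all tested genes separated that way. At an unadjusted p under 0.05 in edgeR 8 of these were higher and none lower, and DESeq2 called 8 higher and none lower. Cd74, the invariant chain, stood at 170 and 273 CPM in CO and 872 and 2317 CPM in DES (2.66 ± 0.56, adjusted p = 0.0700, edgeR). Of 32 chemokines, 6 were higher (Ccl3, Ccl6, Cxcl3, Cxcl13, Cxcl15 and Cx3cl1) and 2 lower, Cxcl12 and Cxcl17. That was 25% of them, against 5.18% of all tested genes. At an unadjusted p under 0.05 in edgeR 10 were higher and 3 lower, and DESeq2 called 8 higher and 2 lower. In the spots with under 1% muscle-marker UMIs 2 of 30 were higher and 1 lower. There Ccl3, Ccl6, Cxcl3 and Cx3cl1 no longer passed, and Cxcl12 came to -0.56 without passing. Il33, an alarmin released by damaged epithelium, stood at 25.3 and 23.6 CPM in CO and 300 and 297 CPM in DES (3.40 ± 0.18, adjusted p = 0.0126, edgeR). The summed plasma cell markers moved in the same direction, from 419 and 632 CPM in CO to 3438 and 6293 CPM in DES. Those of myeloid cells went from 247 and 469 CPM to 1809 and 1024 CPM, most of it Lyz2. Lyz2, Itgam, Csf1r, Cd68 and Adgre1 had log2 fold changes of 2.13, 1.92, 0.82, 0.17 and 0.13, and none of the 5 markers passed. Of 18 macrophage and dendritic cell genes, 2 were higher (Itgax and Ctss) and none lower, 11.1% against 5.18% of all tested genes. At an unadjusted p under 0.05 in edgeR 6 were higher and none lower, and DESeq2 called 5 higher and none lower. The part of cell numbers in these results was not tested.

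Metabolic and growth programs showed few calls. None of 75 oxidative phosphorylation genes passed (median -0.28), none of 21 glycolysis genes (median -0.81), none of 79 cytosolic ribosomal protein genes (median -0.42) and none of 35 cell cycle genes (median -0.83). In edgeR at an unadjusted p under 0.05, 13, 11, 32 and 10 of them were lower, with 1 cell cycle gene higher, and DESeq2 called 6, 8, 18 and 4 lower. Over all tested genes 24.3% reached that p in either direction (12.7% lower) and DESeq2 called 12.7% (6.87% lower). Without CO A the medians of these lists, in the same order, were -0.13, -0.52, -0.34 and -0.44. Without CO B they were -0.45, -0.94, -0.51 and -1.12. Mki67, a marker of dividing cells, stood at 19.5 and 12.2 CPM in CO and 8.99 and 6.07 CPM in DES (-1.30 ± 0.35, adjusted p = 0.111, edgeR). Of 17 genes of the hypoxia response, 3 were lower, Ankrd37, Bnip3 and Ndrg1, and none higher, with 8 lower at an unadjusted p under 0.05 in edgeR and 4 by DESeq2. Bnip3, a mitophagy receptor, stood at 48.1 and 39.1 CPM in CO and 14.3 and 15.9 CPM in DES (-1.74 ± 0.21, adjusted p = 0.0262, edgeR). Among 18 glutathione S-transferases 1 was higher and none lower (5.56%, near the 5.18% of all tested genes in either direction). At an unadjusted p under 0.05 in edgeR 7 were higher and none lower, and DESeq2 called 6 higher and none lower. The gene called was Gsta4, which detoxifies lipid peroxidation products, at 34.7 and 46.1 CPM in CO and 633 and 484 CPM in DES (3.58 ± 0.25, adjusted p = 0.0179, edgeR). None of 14 steroid receptors passed, although 5 were higher at an unadjusted p under 0.05 in edgeR and DESeq2 called 2 higher. Esr1, the estrogen receptor, stood at 267 and 261 CPM in CO and 230 and 232 CPM in DES (-0.40 ± 0.17, adjusted p = 0.244, edgeR). Cdkn2a, a cell cycle inhibitor, stood at 2.48 and 0.453 CPM in CO and 29.7 and 30.0 CPM in DES (4.09 ± 0.68, adjusted p = 0.0435, edgeR).

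**Figure D5:**
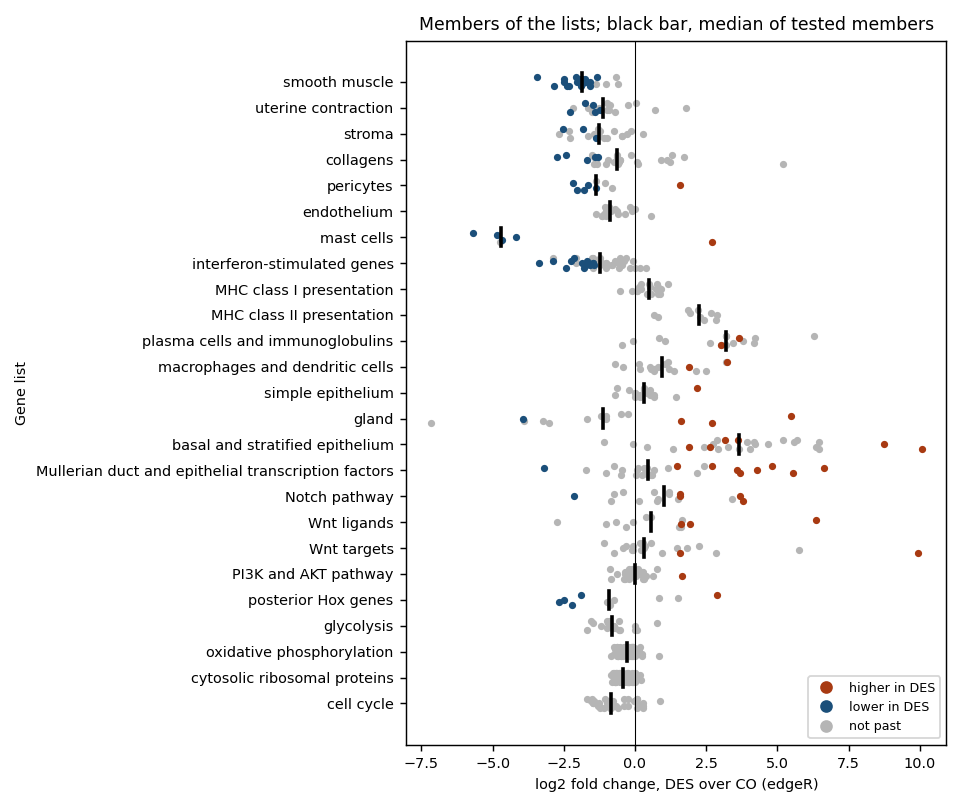
Log2 fold change of DES over CO (horizontal axis) for each tested member of the gene lists named on the vertical axis, with 1 point per gene coloured by its call and a black bar at the list's median. Smooth muscle and interferon-stimulated genes lie to the left with medians of -1.88 and -1.24, basal and stratified epithelium to the right at 3.64, and the ribosomal, oxidative phosphorylation and cell cycle lists show no called member.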

How the data were processed

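Visium spatial RNA-seq of 4 uterine sections was used. The deposited files hold raw UMI counts per gene and spot, which the authors made with Space Ranger 1.2.2 (mouse build mm10, which is GRCm38), and cluster numbers of spots, a code with no unit. The submitters' processing notes also name Cell Ranger 3.0.1 and bcl2fastq 2.20.0.422. Counts of all spots were summed per section. Genes were filtered by edgeR's filterByExpr, scaled by TMM and tested by edgeR's quasi-likelihood test (edgeR 4.0.16, limma 3.58.1, R 4.3.3), adjusted by Benjamini-Hochberg over all 14098 genes. The standard error (SE) is the size of the log2 fold change divided by the square root of the test's F. DESeq2 1.42.0 was an alternative. The 2 single-cell samples of the series were not used here.

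Shares of spots were taken after thinning each spot to 2000 UMIs. A group with no UMI was set to a floor of 3 counts, and ratios with few UMIs have exact intervals; both cover counting error only. The smallest p of an exact permutation test of 2 against 2 is 0.333, so single values were not tested that way. Each section came from 1 mouse. Named genes were first the 15 largest rises and 15 largest falls among genes past the test. Their groups did not overlap, and their higher group held at least 20 CPM in both sections. Also named were up to 4 members past the test and up to 3 others per list (73 lists), the 10 most abundant genes of each group, and markers the study uses. Members named beyond that (among them Myl9, Col5a1, Jph2, Notch3, Kit, Krt1, Lamb3, Cspg4, Hoxd8, Eya1, Runx1, Msx2, Ccl6, Cx3cl1, Cxcl12, Cxcl17 and the Ces2 genes) were chosen after their values were seen. The genes and lists were chosen with earlier results of these data known. Promoters came from RefSeq (GRCm38.p6), and 10167 of the 14098 tested genes had one.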

Additional observations from a re-analysis of the deposited data

How the results depend on the processing

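The total of 730 calls (367 higher and 363 lower in DES) became 1791 with DESeq2 (822 and 969) and 977 without the filter on low counts (494 and 483). With 1 section left out it ran from 55 to 2796, with 50 to 1300 higher and 5 to 1496 lower, and the lone section left in a group was assumed to vary like the other group. In spots with under 1% muscle-marker UMIs, an alternative chosen after seeing the data, there were 431 calls (244 higher and 187 lower), and the log2 fold change turned to 1.02 for Cnn1, 0.91 for Tpm2, 1.89 for Kcnmb1, 0.52 for Atp2b4 and 0.19 for Mcam. With the section letter as a replicate block there were 511 calls (289 higher and 222 lower). The labels name nothing else that sections of the same letter share. Their deviations from the group means correlated at -0.03 over all tested genes. With 2 sections a group, that value cannot exclude a pairing that touches some of the genes. A count lost under this pairing was not read as a weaker effect. DESeq2's size factors (753), leaving out the 20 most abundant genes (753), thinning (780), spots with at least 1000 UMIs (746) and scaling by library totals (806) stayed within 1.5 times. The cause of these changes was not tested. With 2 sections a group, all on 1 slide, the p-values rest on the spread between 2 mice of a group, pooled over genes by edgeR. A gene that missed the threshold was not shown to be equal.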
